A study of Arabidopsis thaliana with 9 samples.

Results

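The RNA described here came from wild-type Arabidopsis thaliana seedlings of the accession Col-0, 2 weeks old, with the treatment labelled Mock, and was sequenced in 3 of the 9 libraries of the study. The libraries were chosen by genotype alone, and the other 6, made from nrpd1-3 and nrpe1-11 mutants, were not used. The Col-0 plants carried no mutation or transgene in the labels. Seedlings had grown under days longer than the nights, warmer by day, and polyadenylated RNA was selected before the libraries were made. The hour of collection is missing from the labels, and so is whether each library had plants or a pool of its own, so the spread between them may be partly technical. Values were FPKM (fragments per kilobase of exon, relative to all aligned fragments, so a level per length) for 37898 genes.

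A seedling of this age feeds itself by photosynthesis. The proteins of the thylakoid membrane and the enzymes of carbon fixation are encoded partly in the chloroplast and partly in the nucleus, and the nuclear genes are among those a green leaf transcribes most. Ribosomes need ribosomal RNA, made by RNA polymerase I from tandem repeats and normally without a poly(A) tail, and a large set of ribosomal proteins, whose messages are polyadenylated. Clock, light and sugar supply set the level of many other leaf messages.

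Libraries 1, 2 and 3 held 1.23, 1.01 and 1.22 gigabases of aligned sequence, estimated from the steps between low values. For a gene with 1500 exonic bases, an FPKM of 1 then stands for 1847, 1519 and 1830.4 of those bases. Library 2 was the shallowest. It also held the largest share of ribosomal RNA and the lowest level of most genes, so the shares it moved most are also given as the mean of libraries 1 and 3. An FPKM of at least 1 was reached by 17357, 16802 and 17365 genes. In the mean of the 3 libraries 17238 genes (45.5%) reached that level, 467 reached 100, and 14408 genes (38.0%) were listed at 0 in every library. Of 27444 protein-coding genes, 16757 (61.1%) had a mean of at least 1 and 6002 were at 0 throughout.

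Ribosomal RNA stood at the top of the list although the RNA had been selected for poly(A) tails. The 18S gene AT3G41768 (chr3:14197677-14199484, plus strand) was at an FPKM of 41884, 57569 and 45188, and the 18S gene AT2G01010 (chr2:3706-5513, plus strand) was at 28209, 34411 and 28973. Both were highest in library 2. Their exons are near-identical copies, so reads could have been split between them in either direction, and the sum is firmer than either value. The 4 genes annotated as ribosomal RNA took 16.8%, 21.4% and 17.3% of the summed FPKM, a mean of 18.5 ± 2.52% (SD, n = 3). AT2G01020 is annotated as a 5S gene but its 164 bases aligned with those of AT3G41979, the 5.8S gene of chromosome 3.

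Further loci of the same 2 annotated ribosomal DNA units carried other labels. AT3G06365 (chr3:14200215-14204208, plus strand, a noncoding RNA in the position of the large subunit RNA) was at 15073, 27729.9 and 15529.6. AT2G03865 and AT2G03875, noncoding loci of the chromosome 2 unit, had means of 10593 ± 3005 and 6385 ± 1824. AT2G01021, annotated as a protein-coding gene of 102 bases inside that unit (chr2:6571-6672), was at 3174, 7356 and 3799 and ranked seventh of all genes. With every locus of the units counted, ribosomal DNA held 24.2%, 34.0% and 24.8% of the summed FPKM (27.7 ± 5.46%), and 25.8%, 36.5% and 26.5% of the aligned sequence. Without library 2 the ribosomal DNA loci averaged 24.5% of the FPKM and the annotated ribosomal RNA genes 17.1%.

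**Figure D1:**
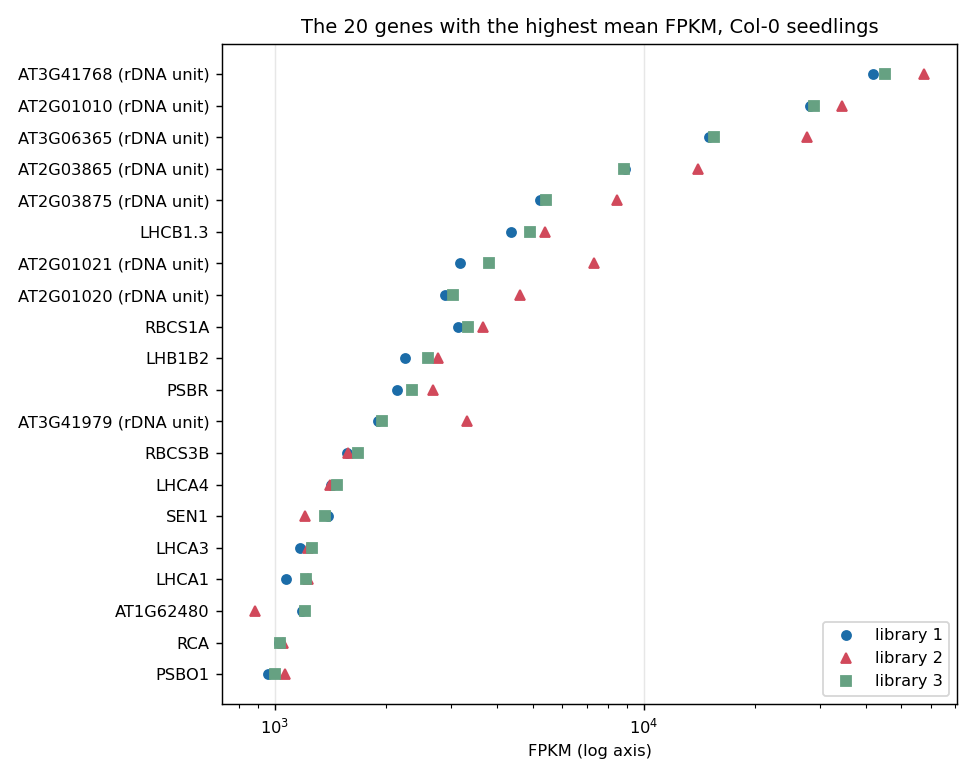
The FPKM of the 20 genes with the highest mean, 1 point per library on a log axis, with loci of the ribosomal DNA units marked. The 8 marked loci are highest in library 2 by a wide margin, while SEN1 and AT1G62480 are lowest in it.

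Because so much of the total fell on few loci, the distribution was steep. The 10 largest genes of each library held 25.8%, 35.7% and 26.6% of its FPKM. In the mean, 5 genes held 25% of the FPKM, 262 held 50% and 6806 held 90%. Outside the ribosomal DNA units the 10 largest held 5.83%, 7.21% and 6.23%, and 150, 990 and 8361 genes were needed for 25%, 50% and 90%. The plot of the 20 highest genes shows that, apart from the ribosomal loci, SEN1 and AT1G62480, all of them serve photosynthesis.

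The highest messenger RNA was that of LHCB1.3 (AT1G29930, chr1:10477885-10479114, plus strand), a chlorophyll a/b binding protein of the main light-harvesting antenna of photosystem II, at 4356, 5405 and 4917. LHB1B2 (AT2G34420, chr2:14522524-14523568, minus strand), of the same antenna, came after the Rubisco gene RBCS1A described below, at 2252, 2768 and 2599. For both genes library 1 was lowest and library 2 highest. LHCB1.3 shares near-identical exon stretches with AT1G29910 and AT1G29920, and LHB1B2 with AT2G34430, so the split within each set is uncertain. Both genes, like LHCA4 below, also overlap an opposite-strand locus, and how the libraries treat strand is unknown, so such overlaps make a value uncertain.

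The antenna of photosystem I was close behind. LHCA4 was at 1421, 1413 and 1477, LHCA3 at 1169, 1232 and 1259, and LHCA1 at 1070.5, 1231 and 1218. These 3 proteins bind chlorophyll at the edge of photosystem I. The ranges of LHCA3 and LHCA1 overlapped, and LHCA4 lay above both in every library. Of 27 antenna genes 26 had a mean FPKM of at least 1, and the class held 3.93%, 4.31% and 4.23% of the summed FPKM (4.16 ± 0.201%).

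Photosystem and electron transport genes, 88 of 95 at a mean of at least 1, held 4.22 ± 0.0757%. PSBR, a small subunit of photosystem II near the oxygen-evolving complex, led them at 2148, 2685 and 2347. PSBO1, which stabilises the manganese cluster that splits water, was at 955, 1064 and 1002. The photosystem I subunits PSAG and PSAF had means of 899.8 ± 43.3 and 822 ± 62.6, and PSBP-1 of the oxygen-evolving complex 801 ± 25.7. PSAG, PSBR and PSBP-1 overlap other loci and are uncertain to that extent. Every one of these 5 genes ranked among the 29 highest of all.

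The Calvin cycle and photorespiration class, with 51 of 51 genes at a mean of at least 1, held 2.86 ± 0.0221% of the summed FPKM, and 3.97 ± 0.300% of the FPKM outside the ribosomal DNA. AT2G07732, an organelle-like locus described below, is counted in this class and alone held 0.154% of the summed FPKM. RBCS1A (AT1G67090, chr1:25048158-25049667, minus strand), a small subunit of Rubisco, the enzyme that fixes carbon dioxide, was at 3131, 3658 and 3349. RBCS3B was at 1573, 1581 and 1676, and RBCS2B at 729, 832 and 769.5. Together with RBCS1B, named to complete the family after its values were seen, the 4 small-subunit genes summed to 5641, 6299 and 6010.3. RBCS1A made 56.4 ± 1.42% of that sum, RBCS3B 27.0 ± 1.60%, RBCS2B 12.98 ± 0.211% and RBCS1B 3.63 ± 0.0436%. The order of the 4 was the same in each library, with no overlap between neighbours. Near-identical exon stretches link RBCS1A with RBCS2B, and RBCS3B with RBCS2B and RBCS1B. RCA, the activase that frees Rubisco from inhibitors, was at 1024, 1055 and 1034.

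Added up, the 3 photosynthesis classes (173 genes, 0.456% of the genes) held 11.0%, 11.3% and 11.4% of the summed FPKM. Of the FPKM outside the ribosomal DNA they held 14.5%, 17.1% and 15.2%, highest in library 2. Of the 100 highest protein-coding genes outside the ribosomal DNA units, 21 were of the photosystems and electron transport, 15 of the antenna and 10 of the Calvin cycle and photorespiration. Those 10 include the organelle-like AT2G07732. Chlorophyll and carotenoid synthesis was smaller, at 0.361 ± 0.0293%. Its highest genes encode consecutive or neighbouring enzymes of the chlorophyll branch. CRD1, the ring-closing cyclase, had a mean of 459 ± 19.7, PORB, which reduces protochlorophyllide in light, 175 ± 16.1, GUN5, the large subunit of magnesium chelatase, 134 ± 7.41, CHLI1 of the same chelatase 118 ± 13.6 and CHLM, the methyltransferase, 84.6 ± 5.27.

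The 100 bases before the annotated start of the leading antenna genes are printed from the TAIR10.1 genome of RefSeq, 5′ to 3′ on the strand of the gene. Only exact letters were searched, and the start was not measured here. A motif missing from a stretch is therefore not shown to be missing from the core promoter. Capitals mark TATAAA in the last 60 bases of the sense strand or, on either strand, the palindrome CACGTG, the letters GATAAG of the I-box, the letters AAACCCTA of the telo-box or the letters TGGGCC of the site II element.
LHCB1.3 (chr1:10477785-10477884, plus strand): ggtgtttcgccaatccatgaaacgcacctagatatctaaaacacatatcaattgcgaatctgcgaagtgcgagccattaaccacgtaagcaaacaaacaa
LHB1B2 (chr2:14523569-14523668, minus strand): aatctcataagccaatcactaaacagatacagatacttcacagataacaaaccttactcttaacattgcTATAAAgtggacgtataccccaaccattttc
LHCA4 (chr3:17495034-17495133, minus strand): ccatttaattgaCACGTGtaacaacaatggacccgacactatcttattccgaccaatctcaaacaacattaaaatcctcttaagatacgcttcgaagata

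LHB1B2 has TATAAA starting 31 bases before its annotated start. LHCA4 has the palindrome CACGTG, the core of the G-box bound by light-related bZIP and bHLH factors in Arabidopsis, and LHCB1.3 has none of the 5 motifs in this stretch. In the 250 bases upstream, CACGTG stood in 6 of 26 antenna genes (23.1%) and in 28 of 163 genes of the 3 photosynthesis classes (17.2%), against 6.51% of all 27343 protein-coding promoters and 7.32% of the 16729 whose genes had a mean FPKM of at least 1. The antenna and photosynthesis counts, too, are of genes at that level. GATAAG stood in 30 of the 100 highest genes (30%) and in 18.4% of the photosynthesis genes, against 12.3% of all, 12.7% of genes at a mean of at least 1 and 18.4% of the 456 genes at 100 and over. TATAAA in the last 60 bases stood in 17 of the 100 highest genes, in 9.82% of the photosynthesis genes, in 11.5% of genes at a mean of at least 1 and in 12.8% of all. These shares describe letters in a window, not bound sites.

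Ribosomal proteins of the cytosol, chloroplast and mitochondrion formed a large class of moderate genes. Of 392 genes 356 had a mean of at least 1, and together they held 5.01%, 4.26% and 4.89% of the summed FPKM (4.72 ± 0.407%), lowest in library 2. The highest, AT5G24490, a gene annotated as a 30S ribosomal protein, was at 412, 356 and 363, AT5G27850, of the L18e/L15 family, at 349, 279 and 320.4, and AT5G20290, of the S8e family, at 279, 244 and 274. SSR16, a small-subunit protein of plastid type, had a mean of 261 ± 17.2 and emb2386, of the L19e family, 247 ± 6.28. AT5G24490 and AT5G27850 overlap loci on the opposite strand. The highest mean of the class was 377 ± 30.5, so its share was spread over many members.

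The sequences below are 100 bases before the annotated starts, with the same marks, where TGGGCC on the opposite strand reads GGCCCA and the overlapping run TGGGCCCA holds both.
AT5G24490 (chr5:8365501-8365600, plus strand): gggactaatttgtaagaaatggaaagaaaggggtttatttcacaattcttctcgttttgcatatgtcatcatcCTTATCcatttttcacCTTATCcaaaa
AT5G27850 (chr5:9872967-9873066, plus strand): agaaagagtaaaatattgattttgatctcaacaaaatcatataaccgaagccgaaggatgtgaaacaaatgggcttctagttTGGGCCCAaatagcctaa
AT5G20290 (chr5:6853107-6853206, minus strand): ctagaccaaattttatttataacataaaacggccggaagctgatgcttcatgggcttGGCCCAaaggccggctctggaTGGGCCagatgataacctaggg
SSR16 (chr4:16536225-16536324, minus strand): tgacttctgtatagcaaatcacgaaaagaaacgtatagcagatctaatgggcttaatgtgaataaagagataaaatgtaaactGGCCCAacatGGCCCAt
emb2386 (chr1:609535-609634, minus strand): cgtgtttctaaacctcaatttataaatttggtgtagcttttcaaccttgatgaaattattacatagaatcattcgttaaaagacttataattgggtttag

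TGGGCC, known from promoters of Arabidopsis ribosomal protein genes, stood in the 250 bases upstream of 158 of the 352 ribosomal protein genes at a mean FPKM of at least 1 (44.9%), against 13.7% of all promoters, 17.3% of those at a mean of at least 1 and 19.6% of those of the photosynthesis classes. By level the share went from 7.95% of genes below 1 to 24.1% at 100 and over, a group that includes ribosomal protein genes. In the 100 highest genes it was 14%, below the share at a mean of at least 1. AAACCCTA stood in 53 of 352 (15.1%), against 4.50% of all and 3.47% of those at a mean of at least 1. CACGTG was in 3.41% of ribosomal protein promoters, below the 6.51% of all and the 7.32% at a mean of at least 1. In the printed stretches AT5G27850, AT5G20290 and SSR16 have TGGGCC on at least 1 strand, and AT5G24490 has GATAAG on the opposite strand (CTTATC) instead. The stretch of emb2386 has none of the 5 motifs.

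Translation factors were also abundant. EF1A4, an elongation factor 1-alpha, was at 401, 380.4 and 396, and FBR12, the initiation factor 5A, at 249.9, 241 and 250.1. TCTP, a conserved growth-related protein, was at 872, 753 and 871. It entered this class through its product name, translationally controlled tumor protein, not as a known translation factor. EF1A4 shares near-identical exons with 3 loci. The translation factor class held 0.900 ± 0.0798% of the FPKM with TCTP counted in it, and TCTP alone held 0.182%. Histone and chromatin genes held 0.225 ± 0.0279%. The highest were the histone genes AT4G40040 at 126 ± 5.73 and AT4G40030 at 87.2 ± 8.67.

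**Figure D2:**
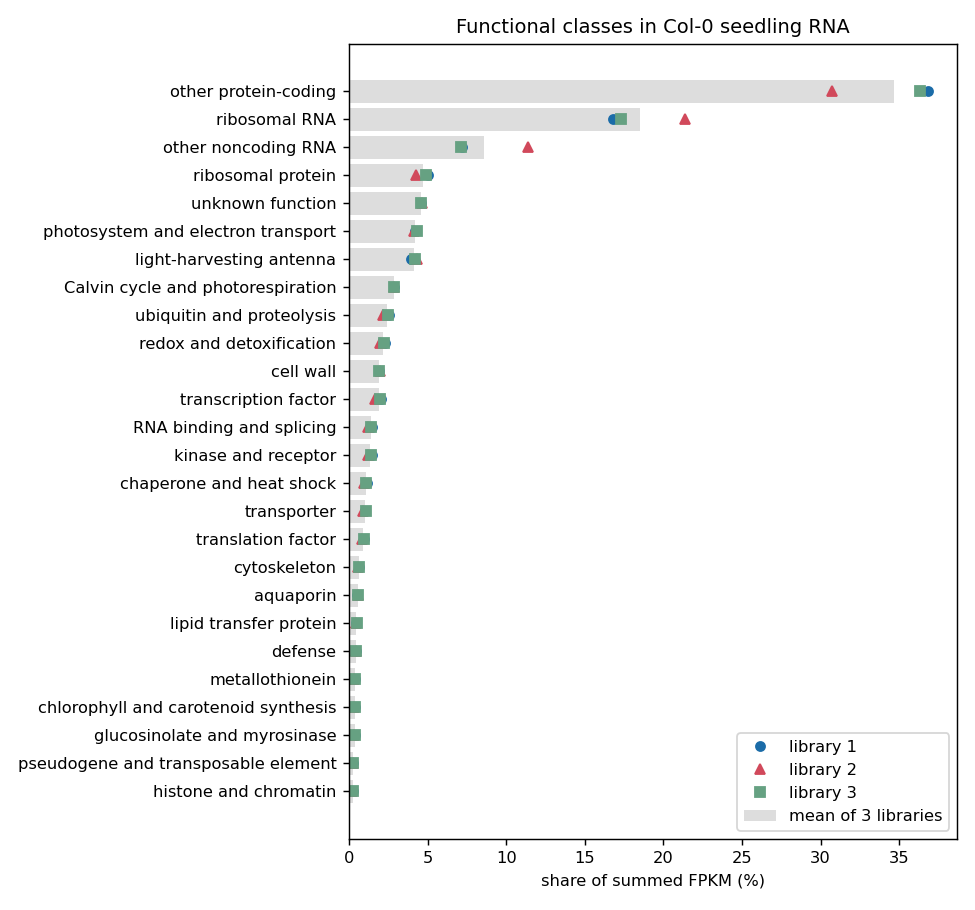
Share of the summed FPKM (%) held by each of 26 gene classes, with bars for the mean of the 3 libraries and 1 point per library. Library 2 lies to the right for ribosomal RNA (21.4%) and other noncoding RNA (11.4%) and to the left for other protein-coding genes (30.8%). Most of the share of other noncoding RNA lies in loci of the ribosomal DNA units.

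The plot of class shares shows that other protein-coding genes were the largest group at 34.6 ± 3.38% (36.6% without library 2), spread over 16052 genes. Other noncoding RNA held 8.56 ± 2.43%, or 7.16% without library 2. Most of that share lay in the noncoding loci of the ribosomal DNA units. Of the FPKM outside those units the class held 0.650%, 0.580% and 0.610%. Ubiquitin and proteolysis held 2.39 ± 0.208%, led by the polyubiquitin gene UBQ10 at 504, 571 and 531.5. Redox and detoxification held 2.17 ± 0.167%. CAT3, a catalase that removes hydrogen peroxide, was at 802, 826 and 654, lowest in library 3. FSD1, an iron superoxide dismutase of the chloroplast, had a mean of 458 ± 19.9 and GSTF2, a glutathione transferase that overlaps another locus and has a near-identical copy, 679 ± 28.5.

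Cell wall genes held 1.93 ± 0.0209%. The glycine-rich protein genes GRP3S and GRP-3 were at 509.9 ± 29.3 and 476 ± 20.4, and XTH24, which cuts and rejoins xyloglucan, at 403 ± 55.4. The extensin gene EXT3, coding for a structural wall glycoprotein, was at 331, 497 and 319, and EXT4 at 263, 386 and 335. Both extensins were highest in library 2. Aquaporins held 0.551 ± 0.0229% with 31 of 45 genes (68.9%) at a mean of at least 1, against 61.1% of all protein-coding genes. TIP2, a water channel of the vacuolar membrane, was at 636, 803 and 733 and DELTA-TIP at 399, 435 and 439, while PIP1B of the plasma membrane was at 246, 245 and 255.

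Metallothioneins, small cysteine-rich proteins that bind metals, held 0.372 ± 0.0333% in 6 genes at a mean of at least 1. MT3 was at 838, 594 and 684.5, and MT2B at 600.1, 675 and 667. Lipid transfer proteins held 0.470 ± 0.0150%, with AT2G45180 at 689, 605 and 796. The glucosinolate and myrosinase class, the mustard oil defence of the cabbage family, held 0.358 ± 0.0282%. Its leaders were the myrosinase gene TGG1 at 425 ± 21.7 and PYK10, a beta-glucosidase of ER bodies, at 437, 323 and 429. The class gathered by defence words in the annotation held 0.436 ± 0.0194%. Its highest gene, POM1, was at 225 ± 16.5 and is annotated in the chitinase family but known for its part in cell wall assembly. The pathogenesis-related gene PR4 was at 147, 194 and 172.

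Regulators made many genes but little RNA. Transcription factors were 1569 genes, of which 926 (59.0%) had a mean of at least 1, and held 1.90 ± 0.196% (2.01% without library 2). Kinases and receptors, 659 of 1044 (63.1%) at that level, held 1.36 ± 0.147%. In both classes the share of genes that passed lay near the 61.1% of all protein-coding genes. The highest of each were BTF3, of the nascent polypeptide complex by family, at 137 ± 6.03 and AT5G21090, a leucine-rich repeat protein, at 139 ± 4.31. Transporters held 1.00 ± 0.0765%, with the sugar transporter STP1 at 164 ± 17.36, the ABC transporter PEN3 at 149 ± 8.27 and the proton pump HA1 at 139 ± 1.73. Proteins without a described function made 4.61 ± 0.0608%, with AT2G01021 of the ribosomal DNA as its highest member.

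Smaller shares of the other gene types passed an FPKM of 1. Of 221 genes of the type ncRNA 76 did (34.4%). Of 3480 long noncoding RNA genes 120 did, as did 64 of 3917 pseudogenes, 21 of 325 miRNA genes, 62 of 287 snoRNA genes and 8 of 625 tRNA genes. Some nuclear loci are near-copies of organelle genomes. By sequence 196 loci matched a mitochondrial or chloroplast genome over at least 50% of their exons, 187 of them on chromosome 2, and 62 had a mean of at least 1. They held 0.340 ± 0.0145% of the FPKM. AT2G07732, a nuclear locus with the Rubisco large-subunit domain, was at 717, 716 and 683, and the pseudogene AT2G07688 at 417, 414 and 417. Reads from these loci and from the organelles cannot be told apart here.

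**Figure D3:**
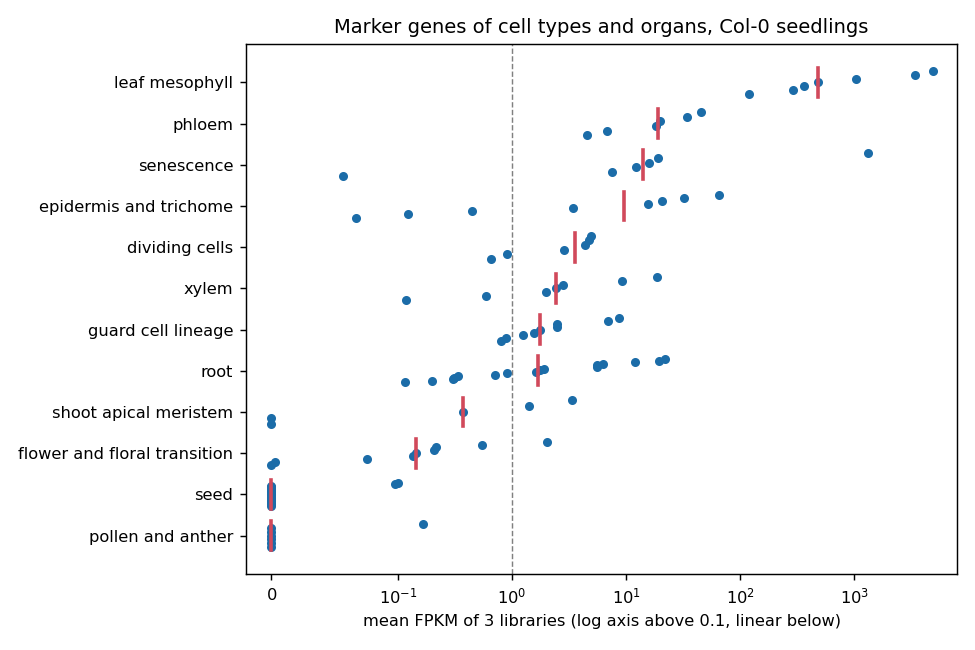
Mean FPKM of every marker gene in 12 lists (points) with the list median (red bar), on a log axis above 0.1 that is linear below it. The dashed line marks an FPKM of 1. Mesophyll markers lie highest, and nearly all seed and pollen markers lie at 0.

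Marker genes of the leaf mesophyll were high, those of vein, epidermis and root were partly present, and those of seed and pollen were nearly absent. All 7 mesophyll markers exceeded 100, with a median of 481. Carbonic anhydrase CA1 had a mean of 361 ± 31.2 and GAPA, a chloroplast glyceraldehyde phosphate dehydrogenase, 481 ± 6.55, and both overlap another locus on the same strand. In bulk RNA, fewer cells of a type and less RNA per cell cannot be told apart, so the levels below give no cell numbers. Storage and maturation genes of the seed were missing. Of 16 seed markers 14 were listed at 0 in every library, among them the storage protein genes CRA1, CRU2, CRU3, SESA1, SESA2, SESA4 and SESA5 and the regulators LEC1, LEC2, FUS3 and ABI3. Of 7 pollen and anther markers 6 were at 0, namely VGD1, VGDH1, PPME1, AGP11, A9 and MS1.

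Floral identity was almost unseen. Of 9 floral genes only SEP3, a MADS factor of the flower, had a mean of at least 1, at 2.24, 0.728 and 3.11, and it lay below 1 in library 2. PI was at 1.20, 0 and 0.419, FT, the mobile flowering signal, at 0, 0.238 and 0.377, and SEP2 at 0 throughout. Of the shoot meristem list, KNAT1 was at 3.20, 2.94 and 3.86 and STM at 0.854, 1.45 and 1.89, whereas WUS and CLV3 of the stem cell niche were listed at 0 in all 3 libraries. Markers of dividing cells were low, with KNOLLE, the cytokinesis syntaxin, at 4.91 ± 0.828 and CYCD3;1 at 4.76 ± 1.38.

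Vascular, epidermal and root lists passed an FPKM of 1 in part, beside 61.1% of all protein-coding genes. All 6 phloem markers passed 1, with the sucrose exporter SWEET11 at 45.7 ± 5.66 and the sucrose loader SUC2 at 18.3 ± 0.963. Of 7 xylem markers 5 passed, and the protease genes XCP2 and XCP1 were at 18.8 ± 2.50 and 9.12 ± 1.44, while the xylem vessel regulators VND6 and VND7 had means of 0.591 and 0.118. Of 8 epidermis and trichome markers 5 passed. The wax genes CER6 and CER5 were at 65.0 ± 2.04 and 20.6 ± 2.21, and the trichome regulators GL1, TRY and GL3 had means of 0.448, 0.122 and 0.0671. GL2 of the same list, which overlaps other loci, passed at 3.15, 3.21 and 3.90. Of 16 root markers 9 passed (56.2%). PHO1, which loads phosphate into the xylem, was at 21.9 ± 1.83, PHT1;1, a phosphate uptake gene with near-identical copies, at 19.5 ± 1.92, SULTR1;2, for sulfate, at 11.9 ± 2.76 and CASP1, of the endodermal barrier, at 6.22 ± 1.54. COBL9, WER, RSL4, PLT1, NRT2.1, SMB and WOX5, most of them genes of root hairs, the cap or the root meristem, had means of 0.116 to 0.895. EXPA7, also a root hair gene, was among the root markers that passed. The xylem, trichome and root genes below 1, and GL2 and EXPA7, were named after their values had been seen. Of 9 guard cell markers 7 passed (77.8%). The guard cell regulator FAMA was at 11.3, 5.802 and 8.80 and MYB60 at 8.74, 4.06 and 7.93. Both were among the 5 of those 7 that were lowest in library 2, beside 64% of all 17238 genes. In the same list 1 gene was highest in library 2.

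The 3 genes listed for darkness and sugar shortage were among the most abundant messages. The list is short and was chosen with earlier results of these data known, so it does not stand for all such genes. SEN1, a gene named for dark and senescence induction, was at 1394, 1203 and 1368 and ranked fifteenth of all genes. DIN10, annotated as a raffinose synthase, was at 378, 398 and 413 (rank 87), and ASN1, an asparagine synthetase, at 377, 382 and 399.9 (rank 90). DIN10 and ASN1 overlap loci on the opposite strand. Other senescence genes were far lower. SAG13 had a mean of 19.2 ± 0.994, NAP 15.8 ± 3.36 and ORE1 12.1 ± 1.45, and the late marker SAG12 was at 0, 0 and 0.171.

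All 7 evening genes of the clock passed 1, beside 61.1% of all protein-coding genes, with a list median of 17.5 and a lowest mean of 11.2. CCR2, a clock-controlled RNA-binding protein, stood far above the others at 418, 456 and 439, followed by LUX at 27.8, 29.4 and 38.2, TOC1 at 31.7, 25.5 and 30.1 and ELF3 at 18.1, 16.9 and 17.62. All 6 of the morning list passed 1, with a median of 4.17. PRR7 was at 38.7, 29.5 and 35.8, overlapping the values of LUX and TOC1, but CCA1 was at 7.25, 7.35 and 6.65 and LHY, its partner, at 3.02, 1.63 and 3.79. TOC1 lay above CCA1 in each library, and the lowest TOC1 value was above the highest of CCA1. All of these genes swing over the day, and these levels alone set no hour of collection.

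Stress lists were uneven, beside 61.1% of all protein-coding genes at a mean FPKM of at least 1. Cold and drought genes reached 98.3 ± 14.6 for COR47 and 41.7 ± 7.53 for ERD10, both dehydrins, while 4 of 11 stayed below a mean of 1. The 63.6% of that list that passed lay near the share of all protein-coding genes. Of 9 heat shock genes 4 passed 1, HSP90.1 was highest at 9.49 ± 0.160, and HSP22 and HSP21 were listed at 0. All 7 low-oxygen genes passed 1, with alcohol dehydrogenase ADH1 at 59.5 ± 3.53 and haemoglobin HB1 at 35.7 ± 5.66. All 10 touch and wounding genes did so too, led by the calmodulin-like TCH3 at 217 ± 18.4 and the wall enzyme TCH4 at 123.2 ± 13.99. Nitrate reductase NIA2 was at 268 ± 11.0 and NIA1 at 84.0 ± 3.06. The iron-storage ferritin FER1 was at 62.8 ± 3.15, and BHLH100, induced by iron shortage, was at 0 in all libraries.

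Genes of RNA silencing and DNA methylation had a list median of 3.70. AGO1, the main microRNA effector, was at 25.8, 24.9 and 24.2. AGO4, the effector of RNA-directed DNA methylation, was at 6.37, 5.63 and 6.54, DRM2, its methyltransferase, at 5.403, 3.03 and 4.83, and NRPD2, the subunit shared by RNA polymerases IV and V, at 4.87, 4.02 and 4.19. The largest subunits were lower still, with NRPE1 at 0.831, 0.843 and 0.863 and NRPD1 at 0.565, 0.489 and 1.06. RDR2 had a mean of 0.954 ± 0.163, DCL3 1.25 ± 0.0707, DDM1 1.83 ± 0.385, MET1 3.85 ± 0.371, DCL1 3.70 ± 0.403 and the demethylase gene ROS1 4.03 ± 0.698. CMT3 was at 3.69, 1.41 and 3.61, lowest in library 2. Of the 13 genes 10 (76.9%) had a mean of at least 1, beside 61.1% of all protein-coding genes.

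Reference genes in common use covered a wide range of levels. UBQ10 had a mean of 535 ± 33.7, EF1A4 392 ± 10.7, ACT2 243 ± 16.8 and GAPC1 151 ± 2.80. PP2AA3 was at 21.6 ± 1.94, TIP41 at 13.3 ± 2.17 and SAND at 9.09 ± 1.13. These last 3 were named after their values had been seen. Of the 11 genes 7 were lowest in library 2, beside 64% of all 17238 genes.

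Gene structure moved with level among protein-coding genes outside the ribosomal and organelle-like loci. The median exonic length was 1136 bases below an FPKM of 1, 1896 bases between 5 and 10, and 1236 bases at 500 and over. The median number of exons went from 2 to 6 and back to 3, and the share of genes with 1 exon from 29.6% to 10.4% and 21.7%. The median GC content of the exons was 41.0% below 1 and 42.7% at 500 and over. The highest group held 46 genes.

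The 3 libraries resembled each other closely. Over 17238 genes the SD of log2(FPKM + 1) between them had a median of 0.19, and the log2 values of library pairs correlated across genes at a Pearson r of 0.972 (1 and 2), 0.981 (1 and 3) and 0.974 (2 and 3). Genes within a library share its depth and total and are not independent. Libraries 1 and 2 differed at least 2-fold in FPKM + 1 for 339 genes (1.97%), libraries 2 and 3 for 338 (1.96%), and libraries 1 and 3 for 138 (0.801%). The median gene was 0.19 lower on the log2 scale in library 2 than in library 1 (-0.19), and 0.01 higher in library 3 than in library 1. With each library rescaled to its sum outside the ribosomal DNA units, the counts were 281, 279 and 129.

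**Figure D4:**
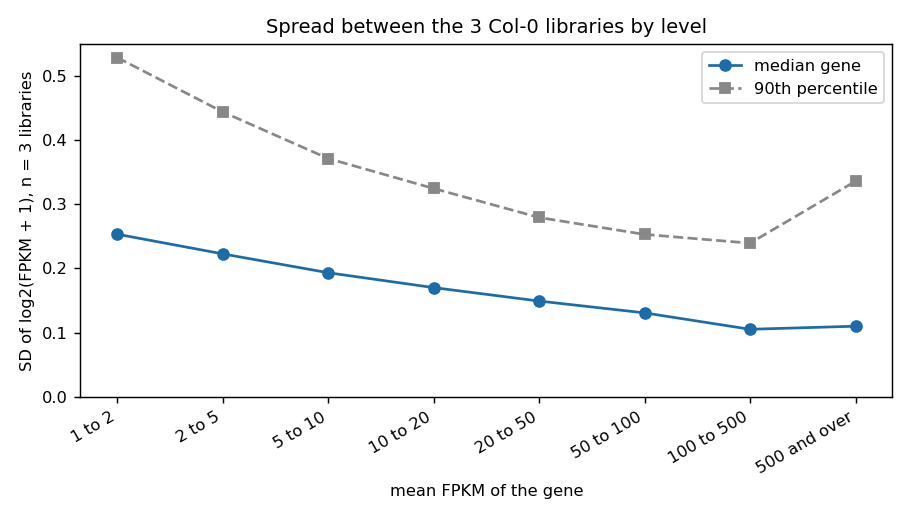
SD of log2(FPKM + 1) over the 3 libraries against the mean FPKM of the gene, as the median (circles) and the 90th percentile (squares) of the genes in each bin. The median falls from 0.25 at an FPKM of 1 to 2 to 0.11 at 100 to 500.

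The spread narrowed as the level rose. The median SD was 0.25 on the log2 scale for 2358 genes at an FPKM of 1 to 2, 0.19 at 5 to 10, 0.15 at 20 to 50 and 0.11 at 100 to 500, and the median coefficient of variation went from 29.6% to 7.23%. The plot of spread by level shows the same for the 90th percentile up to an FPKM of 500. Above that the 90th percentile was 0.34, in a bin of 56 genes that holds 9 of the ribosomal DNA loci. Among classes the median coefficient of variation was 7.40% for the antenna, 7.49% for the Calvin cycle and 33.5% for other noncoding RNA. The first 2 lay near the 7.23% of all genes at 100 to 500. As a share of the FPKM outside the ribosomal DNA, the antenna was less even, at 5.18%, 6.53% and 5.62% (SD 0.685).

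Among genes at a mean of at least 10, the steadiest included several enzymes. MEE31, a mannose-6-phosphate isomerase, was at 19.4, 19.3 and 19.4, PKT3, a peroxisomal thiolase of fatty acid breakdown, at 79.6, 78.8 and 79.4, and BES1, a transcription factor of the brassinosteroid pathway, at 43.0, 42.6 and 42.6. SUE4, HCF101, AT2G43160, PDCB1, WR3, ECT5 and the pseudogene AT2G07688 completed the 10. They are the extreme of many genes with 3 values each, and no test was made.

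Of the 10 most variable genes 6 were noncoding or overlapped another locus. Overlap is also common elsewhere, as 29.2% of protein-coding genes at an FPKM of 10 to 20 overlap an opposite-strand locus. Among the 10 steadiest genes, MEE31, SUE4, AT2G43160, BES1 and ECT5 overlap one too, so overlap does not set the variable genes apart. The variable genes AT1G15405, AT4G04595, AT3G47348 and AT3G41761 are of the class other noncoding RNA. That class made 343 of the 17238 genes at a mean of at least 1. Its median SD was 0.35, against 0.19 for all of them. AT1G15405, a noncoding RNA that overlaps another locus, was at 14.2, 103 and 29.2. AT5G11090 was at 4.30, 14.3 and 15.7, and the noncoding locus AT4G04595 at 7.86, 24.9 and 9.74. RR3, a type-A response regulator induced by cytokinin, was at 12.5, 34.6 and 14.7. It overlaps an opposite-strand locus and has 3 near-copies of some exon stretch. AT3G51500, AT3G26360, a ribosomal protein S21 gene, and AE7 were low in library 2 only, at 9.72, 5.405 and 6.26 against 12.1 or more elsewhere. Single genes also marked the other libraries. MT1A, a metallothionein, was at 3.19, 3.20 and 10.3, and the precursor MIR5026 at 6.65, 7.45 and 1.36. Both overlap another locus on the same strand. They have only 138 and 193 exonic bases, so these low values rest on little sequence.

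**Figure D5:**
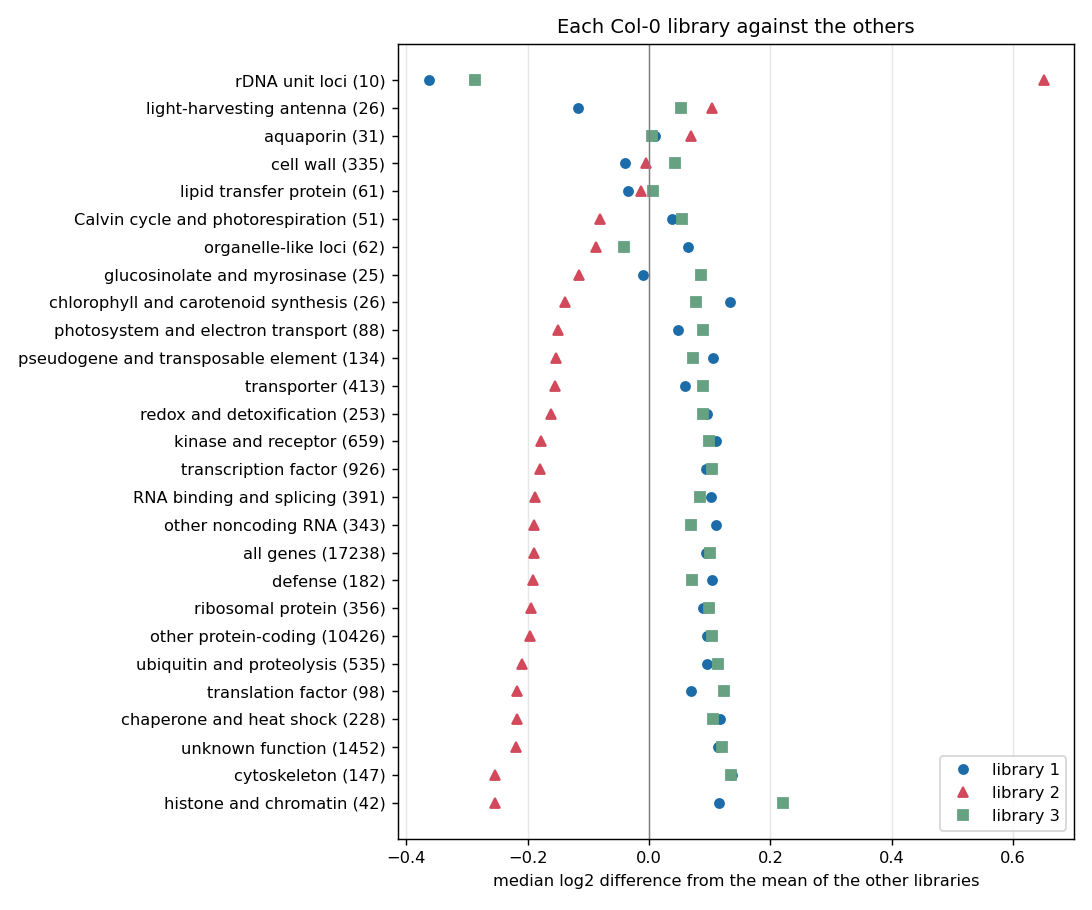
Median log2 difference of each library from the mean of the other libraries, for classes with at least 10 genes at a mean FPKM of at least 1 (their number in brackets). For most classes library 2 lies near -0.2 and libraries 1 and 3 near 0.1, and the ribosomal DNA loci lie at 0.65 in library 2.

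Library 2 stood apart in a class-dependent way. It was the lowest of the 3 for 11029 genes (64%), where library 1 was lowest for 19.9% and library 3 for 16.1%. It was the highest for 2651 genes (15.4%), library 1 for 41.8% and library 3 for 42.8%. Over all genes, the median difference of library 2 from the mean of libraries 1 and 3 was -0.19. The 10 ribosomal DNA loci at a mean of at least 1 were all highest in it, with a median difference of 0.65. Antenna genes were highest in it for 15 of 26 (median 0.10), aquaporins for 17 of 31 (0.07), lipid transfer proteins for 25 of 61 (-0.01) and cell wall genes for 115 of 335 (-0.01). At the other end, histone genes were highest in it for 5 of 42 and cytoskeleton genes for 8 of 147, each with a median of -0.25. Ribosomal protein genes, at -0.19 with 56 of 356 highest, followed all genes.

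With the ribosomal DNA taken out of the total, the median of all genes moved to -0.07, that of the antenna to 0.25, of aquaporins to 0.21, of cell wall genes to 0.11 and of cytoskeleton genes to -0.14. The order of these 4 classes was unchanged. Besides cell wall genes, lipid transfer proteins changed sign (from -0.01 to 0.12), as did Calvin cycle genes (from -0.08 to 0.06), glucosinolate genes (from -0.11 to 0.02) and organelle-like loci (from -0.09 to 0.03). The difference also moved with base composition. In 5 equal groups of genes, from the lowest exonic GC content to the highest, the median for library 2 was -0.29, -0.25, -0.21, -0.17 and -0.08, and for library 1 it was 0.16, 0.13, 0.11, 0.07 and 0.01. Over 5 equal groups by exonic length the library 2 median stayed between -0.20 and -0.18. The part of base composition, depth and ribosomal RNA in the class differences was not tested.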

How the data were processed

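Each of the 3 Col-0 libraries was polyadenylated RNA from seedlings. The authors computed the FPKM values and deposited them as 1 table. The TAIR10 genome and, as tools, StringTie 2.1.7, HISAT2 2.2.1 and fastp 0.23.2 appear per the submitters' processing notes, with no role stated. Neither strandedness nor read length is given in the sources used here. The table held 37929 lines for 37898 genes (AT1G58520 on 32 lines, of which the line with values above 0 was kept), and 0 columns were left unassigned. All gene identifiers matched the TAIR10.1 annotation of RefSeq, which gave coordinates, products and the text for 26 classes. Depth was estimated from the spacing of 648 to 834 low FPKM values times exonic length per library, of which 96.4% to 97.0% lay within 0.1 of a step. Ribosomal DNA units ran 6000 bases past each annotated 18S end. Organelle-like loci (at least 95% identity over 50% of the exons) and near-copies (at least 90% over 150 bases) came from blastn 2.17.0.

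Means and SDs are over n = 3 libraries. Spread and library differences used log2(FPKM + 1) for genes at a mean of at least 1, which understates differences of low genes. With 1 group there was no test and no p-value. Genes named were the 20 highest, up to 5 per class, up to 4 per list with any member at 0, every member of the RNA silencing list, the 10 largest and 10 smallest SDs at a mean of at least 10, and the 5 farthest above and below per library at a mean of at least 5. Genes picked otherwise are marked where named, except CA1, SAG12 and LHY, which were also chosen after their values were seen. The libraries, lists and classes were chosen with earlier results of these data known, and the class text rules were corrected after members had been seen. Functions were checked on simulated data. Tables were made with python 3.11.15, pandas 2.3.3, numpy 2.4.6 and matplotlib 3.10.9.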

Additional observations from a re-analysis of the deposited data

How the results depend on the processing

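No paired analysis was possible because only 1 group was described and no test was made. Of 133 alternative values for 19 results, 105 moved by less than the spread between libraries or, for counts, by less than 1.5 times. With protein-coding FPKM as the denominator, ribosomal RNA was 25.7%, the antenna 5.74%, photosystem genes 5.83%, Calvin cycle genes 3.95%, ribosomal proteins 6.49% and the 10 largest genes 7.52%. As shares of aligned sequence the last 4 classes were 3.06%, 2.56%, 2.56% and 2.94%. With all ribosomal DNA loci counted, ribosomal RNA was 27.7%, and the 10 largest genes outside it held 6.42%. Leaving out each library in turn gave 17.1% to 19.4% for ribosomal RNA, 4.08% to 4.27% for the antenna, 4.19% to 4.26% for photosystem genes, 2.85% to 2.87% for Calvin cycle genes, 4.57% to 4.95% for ribosomal proteins, 26.2% to 31.2% for the 10 largest genes and 17115 to 17420 genes at a mean of at least 1. At a threshold of 5 that count was 10419. The median SD was 0.10 without a filter and 0.11 to 0.18 with each library left out, lowest without library 2. The mean share of genes 2-fold apart (1.58%) was 4.75% with a pseudocount of 0.1, 0.467% at a mean of at least 5, and 0.801% to 1.97% for single pairs, lowest without library 2.

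The library 2 difference of ribosomal proteins turned from -0.19 to 0.011 under median-ratio rescaling. That of cell wall genes turned from -0.01 to 0.18 under median-ratio rescaling, 0.10 under the protein-coding sum and 0.11 under the sum outside ribosomal DNA, and lay between -0.055 and 0.014 with library 1 or 3 left out. Antenna genes moved from 0.10 to 0.32, 0.23 and 0.25 under those 3 scalings, aquaporins to 0.28 and histone genes to -0.051 under median-ratio rescaling. With library 1 or 3 left out the library 2 differences were -0.20 to -0.19 for all genes, 0.03 to 0.18 for the antenna, -0.20 for ribosomal proteins, 0.06 for aquaporins, -0.25 to -0.23 for the cytoskeleton, -0.30 to -0.26 for histones and 0.62 to 0.67 for ribosomal DNA. The cause of these moves was not tested. Median-ratio rescaling brings the median gene to about 0 by construction.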
